A study of Mus musculus with 120 samples.

Results

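The 10 genes described are Tnfrsf9, Tnfrsf4, Tnfrsf18, Icos, Icosl, Pdcd1, Cd274, Ctla4, Klrg1 and Cd69, which encode costimulatory and checkpoint molecules of the cell surface. They were chosen by name from 46078 gene identifiers in the files, and each matched 1 identifier. Reads were found for 9 of the 10, in 13 to 116 of the 120 cells, and Ctla4 had 0 reads in every cell.

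The data are 3' RNA sequencing of 120 single ILC2 (group 2 innate lymphoid cells) of the mouse, lymphocytes without antigen receptors that secrete interleukin (IL) 13 and IL-5. The cells came from the mesentery of 20 wild-type C57BL/6 mice, pooled, sorted for c-Kit and Sca-1 without lineage markers and kept for months in culture with IL-2. IL-33 with IL-2 was the stimulus, secretion was imaged live, and cells were picked 1 at a time by what they secreted. The cytokine imaged, IL-13 or IL-5, is called the index, and each index has 60 cells. Pre-stimulation cells (pre, 5 cells an index) were taken before IL-33. Transition cells were taken 30, 60 or 90 min after a cell began to secrete the index cytokine (11 cells each an index). The paper reports that most cells began to secrete the cytokines together or IL-13 before IL-5. Equal minutes in the indexes therefore need not mark the same stage, and the part of this in the results was not tested. Activated cells (secreting the index cytokine) and silent cells (no secretion of the index cytokine detected) were taken at the end of stimulation, 11 cells each an index. Silent cells thus met the same stimulus as activated ones. Each index was run on 2 title dates of its own, with pre-stimulation cells on the first alone, and the indexes and their dates cannot be told apart.

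Costimulatory receptors of the tumour necrosis factor (TNF) receptor family, among them 4-1BB, OX40 and GITR, recruit TRAF adaptors when their ligands bind and feed the NF-kB pathway, which IL-33 also engages through its receptor ST2. ICOS and its ligand ICOSL are both found on ILC2, and their contact is known to sustain ILC2. Checkpoint receptors such as PD-1, CTLA-4 and KLRG1 carry signals that restrain lymphocytes, and CD69 is a surface protein that appears early after lymphocyte activation. How their transcripts stood before, during and after the onset of secretion is the question of the comparisons here.

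Gene reads numbered 31016336 in all, with a median of 254001 a cell and a range of 65 to 785198, and 3 cells had under 3000. The level of a gene in a group is its reads summed over the cells, per 1000000 gene reads (CPM), with an exact 95% Poisson interval that covers counting error only, since the reads carry no molecular identifiers. No animal or culture is named for a cell in the labels, so each group was treated as 1 sample, no test was made, and the spread between cells is given as the range of a value on leaving out any 1 cell. Of the ILC2 markers, 12 of 12 had reads and their summed level was 10335 to 13622 CPM before stimulation and up to 90 min, and 6124 to 8196 CPM in activated and silent cells. B cell, myeloid, NK and ILC1 and stromal markers were at 0 reads in all groups. Of 8 T cell markers 4 had reads, almost all of them Cd3g, with a summed level of 0 to 1195 CPM that was highest in both pre-stimulation groups, while Cd4, Cd8a, Cd8b1 and Foxp3 were at 0. Mast cell markers (2 of 3 with reads, Mcpt4 at 0) summed to 0 to 326 CPM and ILC3 markers (2 of 2 with reads) to 0 to 344 CPM. Their part in the results was not tested.

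A ratio was called past 4-fold (log2 of 2) among 2658 genes whose mean over the 12 groups was at least 50 CPM, a filter that Tnfrsf9, Tnfrsf18, Icos, Klrg1 and Cd69 passed. The other 5 members lay under it, and their ratios are given uncalled. For a call, a group with fewer than 3 reads was set to 3 reads. A fold against a group at 0 reads is a bound from that floor, while a printed ratio with a group at 1 or 2 reads uses the reads as counted and carries its interval. Ranges on leaving out any 1 cell keep the floor.

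Tnfrsf9 was low in pre-stimulation cells and high in activated cells of both indexes, while at 30 min and in silent cells it was low in the IL-13 index and high in the IL-5 index. Klrg1 was high up to 90 min after onset and low in activated and silent cells alike, the groups in which the summed ILC2 markers were lower too. Among those markers Ly6a was lower there, while Il2ra was higher in activated cells than before stimulation. With all cells summed, Cd69 and Cd274 were highest at 30 min, an order that 1 cell or 1 title date could change for Cd69 in the IL-5 index and 1 title date for Cd274 in the IL-13 index. Tnfrsf18 stayed within 4-fold of pre-stimulation in every comparison made.

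**Figure D1:**
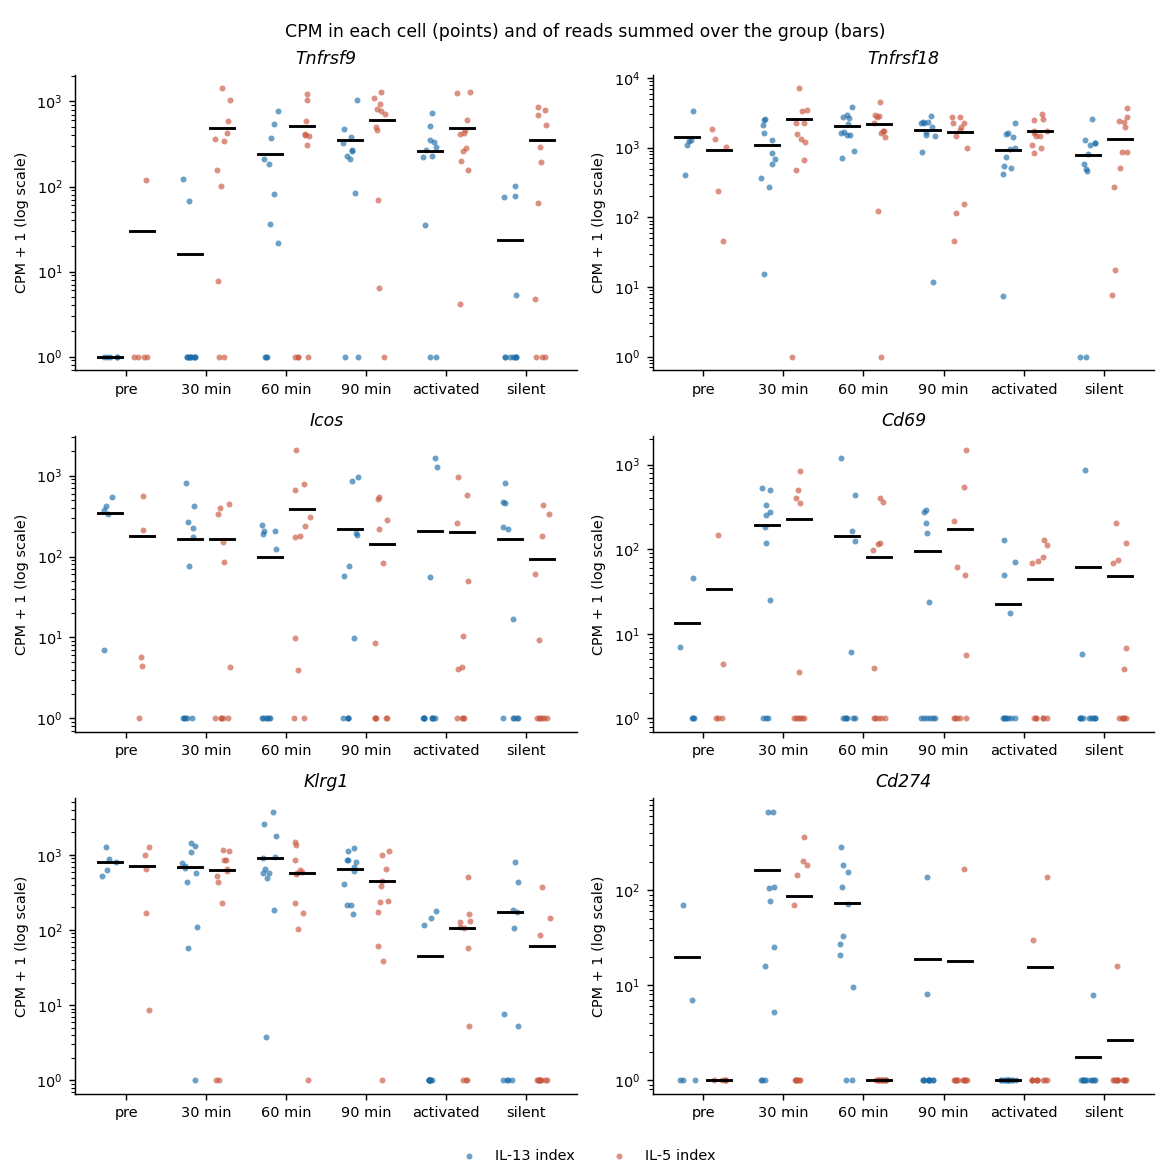
CPM + 1 on a log scale (vertical axis) of 6 genes in each of 120 cells (points) by state (horizontal axis), IL-13 index in blue and IL-5 index in red, with bars at the CPM of the reads summed over a group. Klrg1 has reads in 3 of 11 activated cells of the IL-13 index and in all 5 of its pre-stimulation cells, while Tnfrsf9 is at 0 in those 5 cells.

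Tnfrsf9 encodes 4-1BB (CD137), a costimulatory receptor that activated lymphocytes put on their surface. In the IL-13 index all 5 pre-stimulation cells had 0 reads, and in the IL-5 index 1 of 5 had 35 reads (119 CPM) and the others 0. At 30 min in the IL-13 index, 2 of 11 cells had reads, at 66.4 and 123 CPM. At 60 min in that index the lowest, median and highest cells had 0, 81.0 and 773 CPM, and at 90 min 0, 262 and 1030 CPM. The IL-13 cells were therefore mostly without Tnfrsf9 reads at 30 min and mostly with them at 60 and 90 min.

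In the IL-5 index the lowest, median and highest cells had 0, 340 and 1441 CPM at 30 min after the onset of IL-5 secretion. Activated cells had 0, 267 and 732 CPM in the IL-13 index and 3.18, 409 and 1306 CPM in the IL-5 index. Silent cells had 0, 0 and 101 CPM in the IL-13 index against 0, 194 and 865 CPM in the IL-5 index. Activated cells of both indexes thus overlapped in range, while the silent cells lay low in the IL-13 index and spread from 0 to 865 CPM in the IL-5 index. Silent refers to the index cytokine alone. Il13 had reads in 1 of 11 silent cells of the IL-13 index (4.16 CPM) and 9 of 11 of the IL-5 index (627 CPM). Il5 had reads in 10 of 11 silent cells of each index (204 and 484 CPM). Their part in the Tnfrsf9 levels was not tested.

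As a group level, Tnfrsf9 in the IL-13 index was 0 CPM in pre-stimulation cells. At 30, 60 and 90 min it was 14.9 CPM (95% interval 10.7 to 20.3), 242 CPM (225 to 260) and 349 CPM (321 to 378), with activated cells at 260 CPM (243 to 279) and silent ones at 22.7 CPM (17.3 to 29.2). The IL-5 levels in the same order of states were 28.9 CPM (20.1 to 40.2), 481 CPM (458 to 504), 520 CPM (496 to 545), 596 CPM (562 to 633), 491 CPM (468 to 514) and 349 CPM (328 to 370). The order in the IL-13 index was 90 min, activated, 60 min, silent, 30 min and pre-stimulation, of which 60 min and silent, and 30 min and pre-stimulation, stood apart beyond the leave-one-cell-out ranges. All states with stimulus in the IL-5 index stood apart from pre-stimulation, and no other neighbours did.

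Activated cells had at least 83.7-fold the Tnfrsf9 CPM of pre-stimulation cells in the IL-13 index, where pre-stimulation is at 0 reads, and 17.0-fold in the IL-5 index. With pre-stimulation cells of both indexes as the base, the IL-13 log2 ratio went from at least 6.39 to 4.02. The log2 ratio in the IL-5 index was 4.09 (95% interval 3.61 to 4.61) and stayed at 3.67 or above on leaving out any 1 cell. Of the IL-13 index, activated cells had 11.5-fold the level of silent ones, a log2 ratio of 3.52 (3.14 to 3.92) that kept to 3.29 to 4.07 without any 1 cell and was 2.94 and 4.04 within the title dates. In the IL-5 index the same ratio was 1.41-fold, a log2 ratio of 0.49 (0.38 to 0.60), and it was -0.64 on the first title date and 1.52 on the second. Whether the indexes differ in this ratio was not tested.

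At 30 min the IL-13 index held at least 4.80-fold its pre-stimulation level, but this rests on 40 reads in 2 cells of the first title date. The log2 ratio of 2.26 became 0.77 without replicate 5 of the 30 min cells, and -0.11 when pre-stimulation cells of both indexes served as the base. In the IL-5 index the ratio was 16.6-fold, a log2 ratio of 4.06 (3.58 to 4.58). All Tnfrsf9 reads of the IL-5 pre-stimulation cells came from replicate 4. Without it the IL-5 log2 ratios over pre-stimulation were at least 7.20 at 30 min, 7.23 in activated and 6.74 in silent cells. Silent cells had at least 7.29-fold the pre-stimulation level in the IL-13 index, from 60 reads against 0, and 12.1-fold in the IL-5 index, a log2 ratio of 3.59 (3.11 to 4.12). The IL-13 call is lost with pre-stimulation cells of both indexes as the base, where the log2 ratio goes from 2.87 to 0.50, and with a pseudocount of 10 CPM, where it is 1.71. After thinning each cell to 100000 gene reads, a Tnfrsf9 read was found in 17 of 30 transition cells of the IL-13 index (56.7%, exact 95% interval 37.4 to 74.5) and 25 of 30 of the IL-5 index (83.3%, 65.3 to 94.4). At 30, 60 and 90 min these were 2 of 11, 8 of 11 and 7 of 8 in the IL-13 index, and 9, 7 and 9 of 10 in the IL-5 index. The pooled intervals treat cells as independent and describe no single state. Thinning left out 7 shallow cells of the 120, and 113 were kept.

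Tnfrsf9 (ENSMUSG00000028965) lies at chr4:150914562-150946102 on the plus strand of GRCm38 and overlaps Camta1 on the other strand. The strand setting of the read counting is not given in the sources used here, and without strand, reads of the shared stretch cannot be assigned to either gene. RefSeq (GRCm38.p6) gives Tnfrsf9 2 start sites, and both promoter windows, from 250 bases before to 50 bases after the start, are shown since Tnfrsf9 has the largest called ratio of the members. They are read on the plus strand, chr4:150919905-150920204 first and chr4:150927749-150928048 second, with matches to the NF-kB consensus and to the AP-1 motif TGANTCA in capitals.
Tnfrsf9 first window: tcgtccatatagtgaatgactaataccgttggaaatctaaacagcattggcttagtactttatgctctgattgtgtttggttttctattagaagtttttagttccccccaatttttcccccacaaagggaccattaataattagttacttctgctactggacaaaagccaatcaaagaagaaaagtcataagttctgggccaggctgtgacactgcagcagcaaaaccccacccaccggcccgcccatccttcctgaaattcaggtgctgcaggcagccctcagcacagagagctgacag
Tnfrsf9 second window: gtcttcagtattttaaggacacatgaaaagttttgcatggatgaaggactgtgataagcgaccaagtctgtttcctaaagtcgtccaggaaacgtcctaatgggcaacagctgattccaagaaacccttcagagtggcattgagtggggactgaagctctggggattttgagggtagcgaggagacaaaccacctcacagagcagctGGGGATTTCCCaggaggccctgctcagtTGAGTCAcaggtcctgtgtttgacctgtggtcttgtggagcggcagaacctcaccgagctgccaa
The second window holds 2 overlapping matches to the NF-kB consensus, 43 and 42 bases before the start, and 1 AP-1 match 15 bases before it, and the first window holds neither. Searched on both strands, the NF-kB consensus was found in 8.46% and TGANTCA in 7.81% of 32851 RefSeq promoter windows of the same length. A match describes letters only.

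The neighbours Tnfrsf4 and Tnfrsf18, 9552 bases apart on chromosome 4, gave contrasting pictures. Tnfrsf18, which encodes GITR, was read in 116 of 120 cells and in 111 of 113 thinned cells. Tnfrsf4, which encodes OX40, was read in 19 cells, and all 16 thinned cells with a Tnfrsf4 read also had a Tnfrsf18 read. Levels of the genes are not compared with each other.

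Tnfrsf18 (ENSMUSG00000041954, chr4:156026164-156028895, plus strand) had 403, 1088, 1231, 1287 and 3354 CPM in the 5 pre-stimulation cells of the IL-13 index. In those of the IL-5 index it had 45.0, 241, 1030, 1333 and 1881 CPM. The lowest, median and highest activated cells had 6.46, 957 and 2255 CPM in the IL-13 index and 850, 1602 and 3006 CPM in the IL-5 index. Cells of all states overlapped in range.

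The group level of Tnfrsf18 in the IL-13 index was highest at 60 min, 2036 CPM (95% interval 1985 to 2087), and lowest in silent cells, 790.0 CPM (756 to 825), with pre-stimulation at 1435 CPM, 30 min at 1102 CPM, 90 min at 1782 CPM and activated at 937 CPM. It was highest at 30 min in the IL-5 index, 2592 CPM (2539 to 2646), and lowest before stimulation, 939 CPM (885 to 995), with 2217 CPM at 60 min, 1685 CPM at 90 min, 1731 CPM in activated and 1334 CPM in silent cells. No neighbours in the order of the IL-13 index stood apart beyond the leave-one-cell-out ranges. In the IL-5 index 60 min stood apart from activated cells, the next in order, and 90 min from silent cells. At 30 min over pre-stimulation the log2 ratio was -0.38 (-0.47 to -0.29) in the IL-13 index, with a range of -0.59 to 0.10 on leaving out any 1 cell, and 1.47 (1.38 to 1.56) in the IL-5 index. For activated over pre-stimulation it was -0.61 and 0.88, and for silent over pre-stimulation -0.86 and 0.51, in the IL-13 and IL-5 index. None passed 4-fold. Gm16008 overlaps Tnfrsf18 on the other strand.

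Tnfrsf4 (ENSMUSG00000029075, chr4:156013843-156016612, plus strand) had 0 reads in all 10 pre-stimulation cells and in the silent cells of the IL-13 index. In the other groups its level ran from 9.66 to 116 CPM, and the median cell was at 0 in every group. Of the 411 Tnfrsf4 reads at 30 min in the IL-5 index, all came from replicate 11, at 884 CPM, and all 255 reads in activated cells of that index from replicate 4, at 829.3 CPM. Single cells therefore set these levels. Activated cells in the IL-13 index had at least 45.0-fold the Tnfrsf4 level of silent cells, with 163 reads in 3 of 11 cells against 0 reads in 11 cells. The log2 ratio was at least 4.44 and 4.45 on the title dates, on the second from replicate 8 alone.

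**Figure D2:**
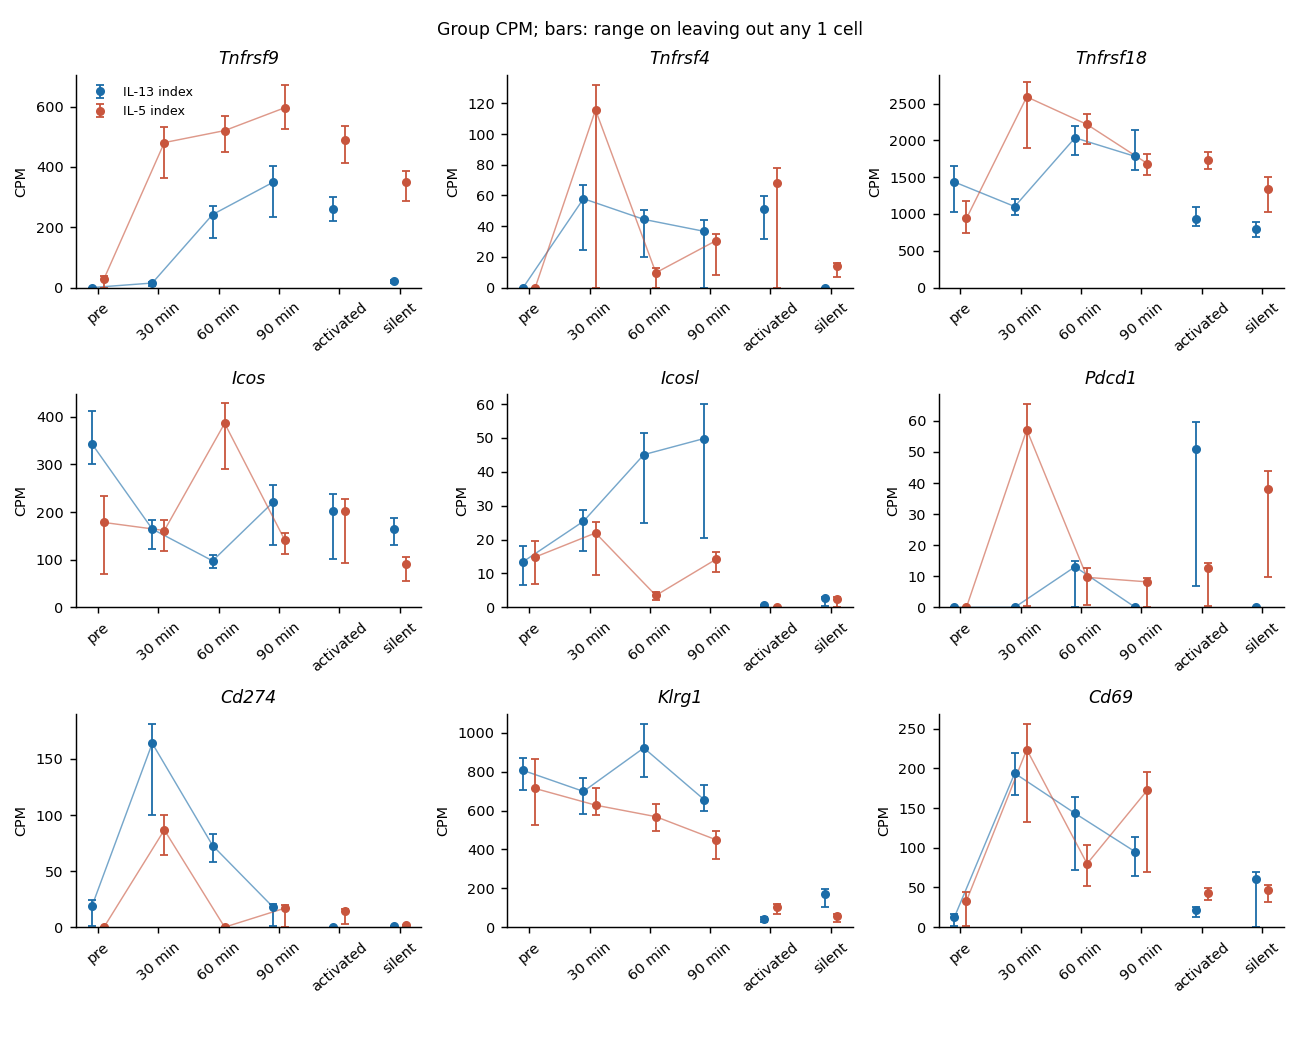
Group CPM (vertical axes) of the 9 members with reads by state (horizontal axes), IL-13 index in blue and IL-5 index in red, with bars for the range on leaving out any 1 cell and lines joining the states up to 90 min. Tnfrsf9 at 30 min is 14.9 CPM in the IL-13 index and 481 CPM in the IL-5 index, Klrg1 drops to 43.5 to 171 CPM in activated and silent cells, and bars that reach 0 for Tnfrsf4 and Pdcd1 mark levels held by 1 cell.

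Icos encodes the inducible costimulator and Icosl its ligand. Icos (ENSMUSG00000026009, chr1:60977927-61000320, plus strand, overlapped on the same strand by Gm37039) had reads in 69 cells. In the 5 pre-stimulation cells of the IL-13 index it had 6.07, 332, 370, 421 and 545 CPM. In those of the IL-5 index it had 0, 3.41, 4.67, 212 and 563 CPM. Thus 4 of 5 cells were high in the IL-13 index and 2 of 5 in the IL-5 index.

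The Icos level in the IL-13 index was 343 CPM (95% interval 307 to 382) before stimulation and 97.7 to 220 CPM in the other states, with pre-stimulation apart from 90 min, the next in order, and 30 min apart from 60 min, the lowest. It was highest at 60 min in the IL-5 index, 386 CPM (366 to 408), with 178 CPM before stimulation and 91.7 CPM (81.3 to 103) in silent cells, and these highest and lowest levels stood apart from their neighbours. Among the activated cells of that first index, 1 cell gave 53.4% of the Icos reads and 3 of 11 thinned cells had a read, against 5 of 5 before stimulation. None of the 10 Icos ratios passed 4-fold. They ran from -1.06 (30 min over pre-stimulation, IL-13 index) to 1.14 (activated over silent, IL-5 index) on the log2 scale. Within a title date they moved much more, as for 30 min over pre-stimulation in the IL-5 index, -0.14 with both dates and -8.11 (-13.42 to -5.62) on the first, from 1 read against 216.

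Icosl (ENSMUSG00000000732, chr10:78069302-78083913, plus strand) was read in 43 cells and its level was 13.5 to 49.8 CPM up to 90 min in the IL-13 index and 3.51 to 22.0 CPM in the IL-5 index. Activated cells of the IL-13 and IL-5 index had 2 and 0 Icosl reads, and silent cells 7 and 8 reads, 2.64 and 2.61 CPM. After thinning, 18 of 30 transition cells of the IL-13 index and 12 of 30 of the IL-5 index had an Icosl read, against 2 of 22 and 1 of 21 activated and silent cells. So few cells at the end of stimulation had Icosl in either index.

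The log2 ratio of 30 min over activated cells for Icosl was 5.34 (3.43 to 8.42) in the IL-13 index, from 68 against 2 reads. In the IL-5 index 30 min cells had at least 27.3-fold the activated level, from 78 reads, 61.5% of them in replicate 7. Activated over pre-stimulation cells gave a log2 ratio of -4.43 (-7.62 to -2.28) in the IL-13 index, from 2 against 13 reads, and activated cells were at least 18.5-fold lower in the IL-5 index, from 0 against 18 reads. The RefSeq window of Icosl (chr10:78069118-78069417, plus strand) holds 1 match to the NF-kB consensus, 111 bases before the start, and no TGANTCA.

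Pdcd1 encodes PD-1, and Cd274 and Pdcd1lg2 its ligands PD-L1 and PD-L2. Pdcd1 (ENSMUSG00000026285, chr1:94038305-94052553, minus strand) was read in 13 cells and was at 0 reads in all 10 pre-stimulation cells. In each group with Pdcd1 reads 1 cell held 76.9% to 100% of them. At 30 min in the IL-5 index replicate 11 had 202 of the 203 reads (435 CPM), and replicate 6 held 87.7% of the 163 reads of IL-13 activated cells. No group level of Pdcd1, 8.20 to 57.2 CPM where it was read, can be separated from what 1 cell gave.

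Replicate 11 of the 30 min cells in the IL-5 index also held the highest CPM of its group for Tnfrsf4 and for Cd69 (833 CPM). It gave 36.4% of the Tnfrsf18 reads and 36.1% of the Icos reads of the group. Its 464846 gene reads were the most of its group.

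Cd274 (ENSMUSG00000016496, chr19:29367455-29388095, plus strand, overlapped on the other strand by AC119228.1) was read in 31 cells. In the pre-stimulation cells of the IL-13 index it had 69.1 and 6.07 CPM in 2 cells and 0 in 3, and in those of the IL-5 index 0 in all 5. At 30 min, 8 of 11 cells of the IL-13 index had reads, with 0, 24.2 and 673 CPM in the lowest, median and highest cells. At 30 min in the IL-5 index 5 of 11 cells had reads, at 69.6, 145, 186, 205 and 360 CPM. Cells with Cd274 reads were thus most frequent at 30 min in the IL-5 index and at 30 and 60 min in the IL-13 index.

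The Cd274 level was 164 CPM (95% interval 149 to 180) at 30 min, 72.8 CPM (63.6 to 83.0) at 60 min and 18.0 CPM at 90 min in the IL-13 index, and 86.7 CPM (77.3 to 97.0), 0 and 16.9 CPM in the IL-5 index. In activated cells it was 0 and 14.5 CPM and in silent cells 0.76 and 1.63 CPM. With all cells, 30 min stood apart from the next level in both indexes. On the first title date of the IL-13 index, however, the level was 19.1 CPM at 30 min and 97.6 CPM at 60 min, against 249 and 60.4 CPM on the second. Over activated cells, 30 min cells had at least 175-fold the level in the IL-13 index, and 5.99-fold in the IL-5 index, a log2 ratio of 2.58 (2.16 to 3.03) that stayed between 2.16 and 5.04 without any 1 cell. Over pre-stimulation cells the log2 ratio was 3.14 (2.46 to 3.90) in the IL-13 index, but 0.04 on the first title date, and in the IL-5 index 30 min cells had at least 35.0-fold the level.

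Pdcd1lg2 lies 22824 bases from Cd274 and was read in 78 cells. Of 27 thinned cells with a Cd274 read, 23 also had Pdcd1lg2, and 47 of 113 had Pdcd1lg2 alone. Its level was 0 and 19.8 CPM before stimulation and 565 and 494 CPM at 30 min, in the IL-13 and IL-5 index. It was 108 and 194 CPM in activated and 59.7 and 190 CPM in silent cells, so Pdcd1lg2 kept reads at the end of stimulation where Cd274 had few. The RefSeq windows of both ligands are shown as neighbours, on the plus strand of GRCm38.p6, Cd274 at chr19:29367188-29367487 and Pdcd1lg2 at chr19:29410669-29410968, with matches to the same motifs in capitals.
Cd274: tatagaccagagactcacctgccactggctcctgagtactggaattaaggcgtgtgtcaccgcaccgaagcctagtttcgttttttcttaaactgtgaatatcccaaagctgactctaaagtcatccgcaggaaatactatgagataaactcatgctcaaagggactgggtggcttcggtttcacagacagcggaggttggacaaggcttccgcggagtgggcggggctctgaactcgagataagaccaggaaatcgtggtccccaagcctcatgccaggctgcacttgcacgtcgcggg
Pdcd1lg2: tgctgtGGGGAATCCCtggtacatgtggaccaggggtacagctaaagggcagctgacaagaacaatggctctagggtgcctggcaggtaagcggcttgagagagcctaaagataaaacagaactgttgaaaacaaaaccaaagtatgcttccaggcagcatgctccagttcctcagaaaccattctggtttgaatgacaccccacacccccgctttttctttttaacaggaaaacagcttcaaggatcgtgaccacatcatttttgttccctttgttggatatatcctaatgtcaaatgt
The Pdcd1lg2 window has 1 match to the NF-kB consensus, 244 bases before the start, and that of Cd274 has none, and neither holds TGANTCA. The windows of Tnfrsf4, Tnfrsf18, Pdcd1, Ctla4 and Traf1 held no match to either motif.

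Ctla4 (ENSMUSG00000026011, chr1:60887000-60915832, plus strand), which encodes CTLA-4, lies 62095 bases from Icos and had 0 reads in all 120 cells. A count of 0 allows up to 3 reads, which is 0.80 CPM in activated cells of the IL-5 index, the deepest group, and 3.11 CPM in pre-stimulation cells of the IL-13 index, the shallowest.

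Klrg1 (ENSMUSG00000030114, chr6:122270596-122282882, minus strand) encodes an inhibitory lectin-like receptor that marks mature ILC2. In pre-stimulation cells it had 516, 625.1, 796, 877 and 1287 CPM in the IL-13 index. Those of the IL-5 index had 7.50, 170.0, 654, 982 and 1275 CPM. All 10 cells had reads before stimulation, and 1 of them had a single read.

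At 30 min the lowest, median and highest cells had 0, 669 and 1445 CPM in the IL-13 index and 0, 610.0 and 1145 CPM in the IL-5 index. At 90 min they had 161, 694 and 1219 CPM and 0, 241 and 1143 CPM. In activated cells they had 0, 0 and 180 CPM in the IL-13 index and 0, 105 and 508 CPM in the IL-5 index. Every activated cell of the IL-13 index lay below every pre-stimulation cell of that index. In silent cells they had 0, 6.65 and 798 CPM and 0, 0 and 375 CPM, so the highest silent cells reached pre-stimulation values.

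The Klrg1 level in the IL-13 index was 807 CPM (95% interval 751 to 865) before stimulation and 699 CPM (667 to 731), 922 CPM (889 to 957) and 656 CPM (618 to 696) at 30, 60 and 90 min. Activated cells were at 43.5 CPM (36.6 to 51.4) and silent cells at 171 CPM (156 to 188). The IL-5 index had 714 CPM (667 to 763), 628 CPM (602 to 654), 569 CPM (544 to 595), 449 CPM (419 to 481), 104 CPM (93.9 to 115) and 59.7 CPM (51.4 to 69.0). In both indexes the lowest transition level stood apart from activated and silent cells beyond the leave-one-cell-out ranges, as did silent from activated cells in the IL-13 index and 60 min from 90 min in the IL-5 index. The summed ILC2 markers, which do not hold Klrg1, were 11373 CPM before stimulation against 6124 CPM in activated and 6723 CPM in silent cells with IL-13 as index, and 10919 CPM against 8196 and 7683 CPM with IL-5. Of these markers, Ly6a alone was 6586 CPM before stimulation against 2387 CPM in activated and 2345 CPM in silent cells with IL-13 as index. With IL-5 it was 5395 CPM against 2840 and 3447 CPM. Il2ra, also in the sum, went the other way in activated cells, 1226 against 406 CPM and 2566 against 213 CPM. The part of the markers in the Klrg1 levels was not tested.

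Activated cells had a Klrg1 level 18.5-fold below pre-stimulation in the IL-13 index, a log2 ratio of -4.21 (-4.48 to -3.95), and 6.86-fold below in the IL-5 index, -2.78 (-2.96 to -2.60). Silent cells were 4.71-fold below in the IL-13 index, -2.24 (-2.41 to -2.07), and 12.0-fold below in the IL-5 index, -3.58 (-3.82 to -3.35). Each of these 4 ratios kept its direction and its place past 4-fold without any 1 cell and on the first title date. At 30 min over pre-stimulation the log2 ratio was -0.21 and -0.18, and with TMM factors 0.01 and 0.17, so it has no stable direction. Activated over silent cells gave -1.98 (-2.26 to -1.70) and 0.80 (0.54 to 1.06), not past 4-fold in either index, with -0.02 and -2.90 on the title dates of the IL-13 index and -0.93 and 3.36 on those of the IL-5 index. On leaving out any 1 cell these ratios ran from -2.57 to -1.23 and from 0.14 to 2.02, so each could pass 4-fold without 1 cell.

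By cell, 29 of 30 thinned transition cells had a Klrg1 read in each index (96.7%, exact 95% interval 82.8 to 99.9). Of activated and silent cells together 10 of 22 had one in the IL-13 index (45.5%, 24.4 to 67.8) and 11 of 21 in the IL-5 index (52.4%, 29.8 to 74.3). Among activated cells 9 of 11 had Tnfrsf9 and 3 of 11 Klrg1 in the IL-13 index, 2 of them with both. In activated cells of the IL-5 index 11 of 11 had Tnfrsf9 and 8 of 11 Klrg1. At 60 min all thinned cells, 11 of 11 and 10 of 10, had Klrg1, and Tnfrsf9 was in 8 and 7 of them.

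**Figure D3:**
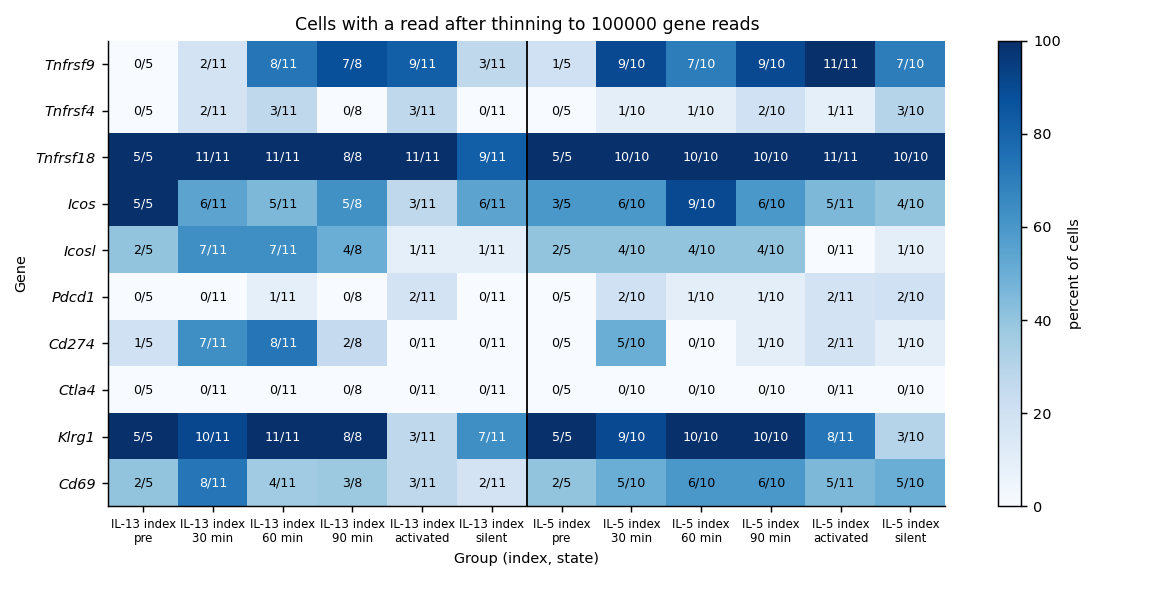
Cells with at least 1 read of a gene after thinning to 100000 gene reads, as cells over cells kept, for the 10 genes (vertical axis) in the 12 groups (horizontal axis), shaded by percent. Klrg1 is in 3/11 activated cells (IL-13 index) and 3/10 silent cells (IL-5 index), and the Ctla4 line is 0 in every group.

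Cd69 (ENSMUSG00000030156, chr6:129267325-129275436, minus strand) was read in 56 cells. Before stimulation it had 44.7 and 5.92 CPM in 2 cells and 0 in 3 in the IL-13 index, and 147 and 3.41 CPM in 2 cells and 0 in 3 in the IL-5 index. At 30 min the lowest, median and highest cells had 0, 180 and 521 CPM in the IL-13 index and 0, 0 and 833 CPM in the IL-5 index. After thinning, 8 of 11 cells at 30 min had a read in the IL-13 index and 5 of 10 in the IL-5 index. The 30 min level was thus carried by most cells in the first index and by fewer in the other.

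The Cd69 level in the IL-13 index was 12.4 CPM (95% interval 6.43 to 21.7) before stimulation, 194 CPM (178 to 211), 143 CPM and 94.9 CPM at 30, 60 and 90 min, with activated cells at 21.3 CPM (16.5 to 27.0) and silent cells at 61.2 CPM. The IL-5 levels were 33.0 CPM (23.6 to 44.9), 224 CPM (209 to 240), 79.9 CPM, 173 CPM, 43.4 CPM (37.0 to 50.6) and 47.0 CPM. At 90 min in the IL-5 index 63.0% of the reads came from 1 cell, and 99.4% of the reads of IL-13 silent cells came from replicate 1, at 857 CPM. The IL-5 level at 30 min was 132 CPM without replicate 11, below the 90 min level, and on the first title date it was 137 CPM against 278 CPM at 90 min.

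At 30 min over pre-stimulation Cd69 was 15.6-fold higher in the IL-13 index, a log2 ratio of 3.96 (3.14 to 4.92), and 6.78-fold in the IL-5 index, 2.76 (2.30 to 3.26). Both stayed past 4-fold without any 1 cell, at 3.60 or above and at 2.00 or above. Their size depends on single pre-stimulation cells. Without replicate 1 of those in the IL-13 index it was 7.12 (4.64 to 12.43), from 519 reads against 1. Without replicate 3 of those in the IL-5 index it was 7.73 (5.25 to 13.03), from 795 reads against 1. Over activated cells the 30 min level was 9.10-fold higher, 3.19 (2.82 to 3.57), and 5.16-fold higher, 2.37 (2.12 to 2.62), and the latter was 1.61 without replicate 11 of the 30 min cells. Silent over pre-stimulation cells in the IL-13 index passed 4-fold at a log2 ratio of 2.30, but it was -4.94 (-10.35 to -2.18) without replicate 1 of the silent cells, from 1 read against 12, 1.36 with pre-stimulation cells of both indexes and 1.67 with a pseudocount of 10 CPM. Without that cell, activated over silent went from -1.52 to 5.71 (3.18 to 11.03), from 68 reads against 1.

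Of the 5 members that passed the filter, Tnfrsf9 and Cd69 were past 4-fold higher at 30 min over pre-stimulation in both indexes and 0 were lower. Of all 2658 genes, 19.9% were called higher and 10.6% lower in the IL-13 index, and 23.7% and 9.37% in the IL-5 index. For activated over pre-stimulation cells Tnfrsf9 was called higher and Klrg1 lower in both indexes, against 22.4% of genes higher and 11.9% lower, and 24.0% and 13.1%. For silent over pre-stimulation, Tnfrsf9 and Cd69 were called higher and Klrg1 lower in the IL-13 index (21.6% and 7.86% of genes), and Tnfrsf9 higher and Klrg1 lower in the IL-5 index (23.3% and 9.44%). These comparisons share their pre-stimulation cells.

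Activated over silent cells gave 1 called member, Tnfrsf9 higher, in the IL-13 index (7.45% of genes higher, 10.5% lower) and 0 in the IL-5 index (4.4% higher, 6.62% lower). At 30 min over activated cells Klrg1 and Cd69 were called higher in both indexes (11.2% of genes and 9.1%), and Tnfrsf9 lower in the IL-13 index (11.2%), not in the IL-5 index (5.42% of genes lower). The median log2 ratio over the 5 members was between -0.86 (silent over pre-stimulation, IL-13 index) and 1.47 (30 min over pre-stimulation, IL-5 index), and over all 2658 genes between -0.20 and 0.27. With 5 members and 1 sample a group, the members' shares cannot be set apart from the background.

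**Figure D4:**
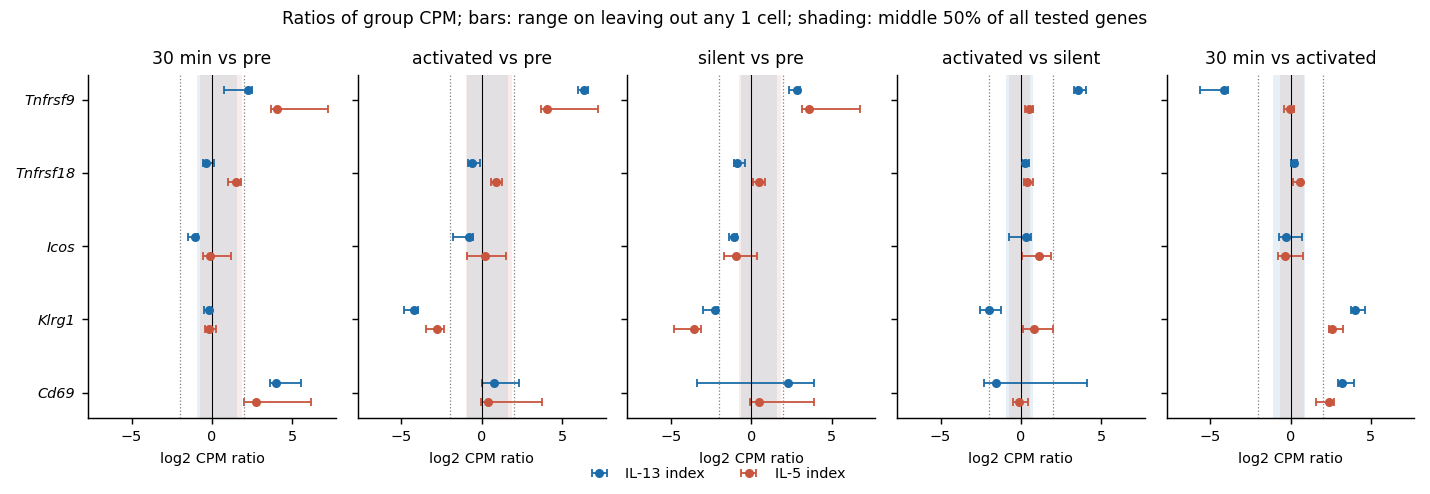
Log2 ratios of group CPM (horizontal axes) of the 5 members that passed the filter (vertical axis) in 5 comparisons, IL-13 index in blue and IL-5 index in red, with bars for the range on leaving out any 1 cell, dotted lines at 4-fold and shading over the middle of all 2658 genes. Klrg1 lies left of the dotted line for activated and silent over pre-stimulation in both indexes, and the Cd69 bar for silent over pre-stimulation in the IL-13 index runs from -3.35 to 3.87 with the floor of 3 reads.

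A list of 43 partner genes (ligands, other costimulatory receptors, other inhibitory receptors, adaptors and phosphatases) was read beside the members, of which 42 were matched, 29 had a read and 10 passed the filter. The ligands of GITR and of CD28 and CTLA-4 (Tnfsf18, Cd80, Cd86) had 0 reads, as did Cd28, Cd40lg, Tnfrsf8, Tnfrsf14, Lag3, Tigit, Btla, Cd5, Pilra and Sh2d1a. Of the 10 that passed, 6 were past 4-fold higher and 0 lower at 30 min over pre-stimulation in the IL-13 index, where 19.9% and 10.6% of all genes were, and 5 and 1 in the IL-5 index (23.7% and 9.37%). For activated over pre-stimulation the counts were 6 higher and 1 lower in the IL-13 index (22.4% and 11.9% of genes), and 3 and 1 in the IL-5 index (24.0% and 13.1%). Silent over pre-stimulation cells gave 6 and 0 (21.6% and 7.86%), and 2 and 2 (23.3% and 9.44%). For activated over silent they were 0 and 0 (7.45% and 10.5%), and 1 and 1 (4.4% and 6.62%), and for 30 min over activated 1 and 0 (11.2% each way), and 0 and 0 (9.1% and 5.42%). The median log2 ratio of the 10 at 30 min over pre-stimulation was 3.30 and 1.99 in the IL-13 and IL-5 index, against 0.05 and 0.23 over all genes. It was 2.71 and 0.94 for activated over pre-stimulation (0.27 and 0.23 over all genes) and 3.18 and 1.01 for silent over pre-stimulation (0.25 and 0.26). For activated over silent it was 0.03 and 0.17 (-0.02 and -0.07), and for 30 min over activated 0.79 and 1.15 (-0.20 and 0.01). Pdcd1lg2, Traf1, Traf2 and Inpp5d were at 0 reads before stimulation in the IL-13 index, so their ratios there are bounds from the floor. In the IL-5 index Traf2 and Inpp5d were at 200 and 169 CPM before stimulation and at 94.9 and 49.0 CPM at 30 min. With 10 genes and 1 sample a group, the partners' shares cannot be set apart from the background.

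Called in the same direction in both indexes were Pdcd1lg2, Cd44, Traf1, Tnfrsf25 and Cd200r1. Traf1, an adaptor that binds 4-1BB and is itself a known NF-kB target, was at 0 CPM in the IL-13 index and 106 CPM in the IL-5 index before stimulation and at 711 and 716 CPM at 30 min. That is at least 228-fold and 6.78-fold higher, and the IL-5 log2 ratio of 2.76 was 4.24 without replicate 3 of the pre-stimulation cells, which held 71.9% of the reads there. Cd44, an adhesion receptor of activated lymphocytes, went from 24.9 and 4.95 CPM to 689 and 614 CPM at 30 min, log2 ratios of 4.79 and 6.95, and was still at 3.19 and 5.91 in activated and 3.09 and 5.58 in silent cells over pre-stimulation. Its pre-stimulation reads, 24 and 6, came from 1 cell an index, and without that cell the 30 min log2 ratios were at least 7.37 and 7.60.

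Tnfrsf25, the receptor DR3 for TL1A, an ILC2 stimulus, was 70.5 and 167 CPM before stimulation, nearly all from 1 cell an index, and 376 and 735 CPM at 30 min. Its log2 ratios were 2.41 and 2.13, and each fell under 4-fold on leaving out 1 pre-stimulation cell, at 1.99 without replicate 1 and 1.71 without replicate 2. Cd200r1, an inhibitory receptor, was lower in activated cells, 59.5 and 17.7 CPM against 329 and 357 CPM before stimulation, log2 ratios of -2.47 and -4.34, the first of which was -1.70 without replicate 3 of the pre-stimulation cells. Pdcd1lg2 at 30 min had at least 182-fold its pre-stimulation level in the IL-13 index and 25.0-fold in the IL-5 index, where all 24 pre-stimulation reads came from replicate 1 and the log2 ratio of 4.64 was at least 7.47 without it.

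**Figure D5:**
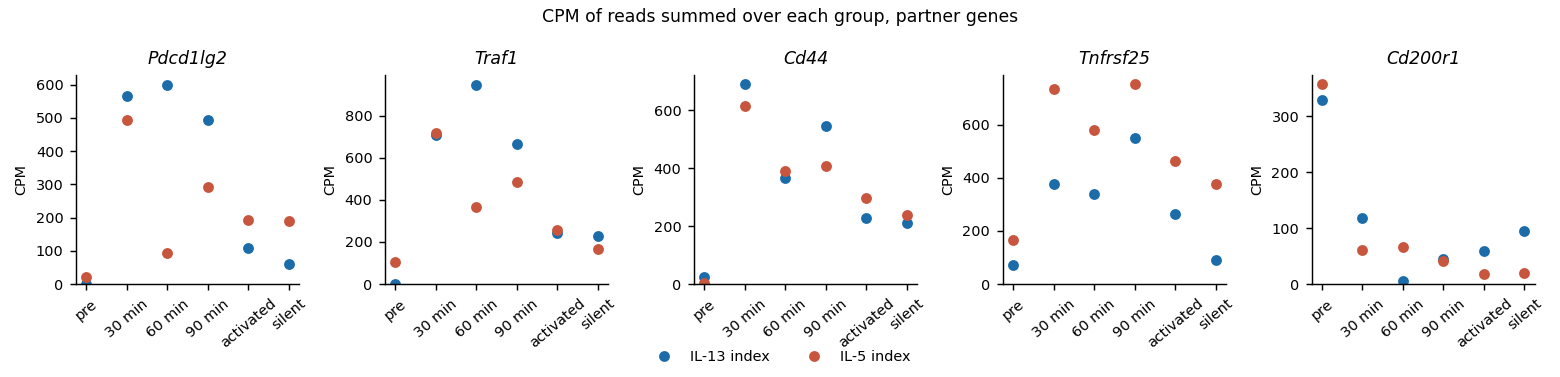
CPM of reads summed over a group (vertical axes) of the 5 partner genes called the same way in both indexes, by state (horizontal axes), IL-13 index in blue and IL-5 index in red. Pdcd1lg2, Traf1 and Cd44 lie near 0 to 106 CPM before stimulation and at 494 to 716 CPM at 30 min, and Cd200r1 is highest before stimulation in both indexes.

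For each of the 5 members that passed the filter, the genes most like it over the 12 groups were found by Pearson's r of log2(CPM + 10) among the 2658 genes, as a description over groups that share dates and depth. They were Tma16, Twistnb and Cdipt for Tnfrsf9 (r of 0.94, 0.92 and 0.91) and S100a6, Dock10 and Atp2b1 for Klrg1 (0.92, 0.90 and 0.90). For Cd69 they were Sqstm1, Orai1 and Rhog (0.91, 0.89 and 0.88), for Tnfrsf18 Tspan13, Bhlhb9 and Map3k8 (0.89, 0.82 and 0.80), and for Icos Nubp2, Nemf and Hilpda (0.86, 0.77 and 0.76).

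Of the 1200 values of 10 members in 120 cells, 517 were above 0. Of these, 71 were 1 to 4 reads, and in 29 of the 71 another cell of the same group and title date, 5 or 6 cells in all, had at least 100 reads of that gene. Libraries were sequenced in pools of that size, but the labels name no pool, so that these cells shared one is an assumption. The part of pooling in such values was not tested.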

How the data were processed

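Libraries of single ILC2 were made with a SMART-Seq 3' kit. The authors deposited raw counts of reads for each gene and cell, made by aligning reads to GRCm38 with TopHat2 and counting with HTSeq. Versions, the annotation release and the strand setting are not given in the sources used here. Each file lists 46078 gene identifiers and HTSeq summary entries, which were left out of totals: 62.0% of alignments were in genes, 28.7% not unique, 7.42% in no gene and 1.86% ambiguous. Symbols and positions came from GENCODE vM21 by identifier, which named 45143.

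Groups were read from source names and titles. Where nothing shows separate cultures or animals, cells only describe spread, so no test between groups was made and no p-value was computed. Counts of a group's cells were summed and scaled to CPM. Intervals for levels are exact Poisson intervals. Intervals for ratios come from the exact (Clopper-Pearson) interval of the split of reads. Shares of cells carry exact binomial intervals. Detection was counted after thinning cells to 100000 gene reads (seed 1). A ratio past 4-fold was called where the mean over the 12 groups was at least 50 CPM, and for the call a group under 3 reads was set to 3 reads. A fold against 0 reads is written "at least" from that floor. Ratios printed with a group at 1 or 2 reads are unfloored and carry their interval, while leave-one-cell-out ranges and recomputed counts of calls keep the floor. The order of states was read as apart where leave-one-cell-out ranges did not overlap.

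All 10 members are named. Partner genes are named where called in the same comparison and direction in both indexes. For members past the filter, the 3 genes with the highest r are named. The members, the lists and the comparisons were chosen with earlier results of these data known. Of 43 partner genes 1 could not be matched by symbol. Promoter windows came from RefSeq (GRCm38.p6), with windows for 7 members and none for Icos, Klrg1 and Cd69. The ratio was tested on simulated data. Alternatives were other scalings (edgeR TMM factors, DESeq2 size factors), the mean of the cells' own CPM, a pseudocount of 10 CPM, other filters, title dates alone, pre-stimulation cells of both indexes, and leaving out the 6 cells under 84667 reads or each cell in turn. Python 3.11.15, numpy 2.4.6, scipy 1.17.1, pandas 2.3.3, matplotlib 3.10.9, R 4.3.3, edgeR 4.0.16 and DESeq2 1.42.0 were used.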

Additional observations from a re-analysis of the deposited data

Results flagged for a closer look

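The 5 pre-stimulation cells of an index were examined gene by gene wherever a member had reads, and in 4 of 12 such sets 1 cell stood far above the others by Dixon's criterion. Chance meets it in about 1 in 20 sets of normally spread values, a rate that need not hold here, since most cells of these 4 sets were at 0 reads. Tnfrsf9 was 119.4 CPM in replicate 4 of the IL-5 index, with the other 4 cells at 0. Cd274 was 69.1 CPM in replicate 1 of the IL-13 index, with the next cell at 6.07 CPM. Cd69 was 44.7 CPM in replicate 1 of the IL-13 index, with the next at 5.92 CPM, and 147 CPM in replicate 3 of the IL-5 index, with the next at 3.41 CPM. Each of these pre-stimulation levels is set by that cell.

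Among ratios with 3 reads or more in at least 1 of the compared groups of each index, the direction was opposite in the indexes in 4 cases, with no sign turned on leaving out any 1 cell and a floor of 3 reads, and the difference between the indexes was not tested. For Tnfrsf18 activated over pre-stimulation cells gave -0.61 and 0.88 in the IL-13 and IL-5 index, and silent over pre-stimulation cells -0.86 and 0.51. For Cd274 activated over pre-stimulation cells gave -4.31 and 2.55, both set by the floor of 3 reads, at 0 against 18 and at 54 against 0 reads, so that the activated level was at least 19.9-fold lower with IL-13 as index and at least 5.85-fold higher with IL-5. Without replicate 1 of the pre-stimulation cells the first has 0 against 1 read and gives no ratio, and the second was 0.09, close to no difference, without replicate 3 of the activated cells, which held 83.3% of the reads. For Klrg1 activated over silent gave -1.98 and 0.80, and the latter was 0.14 without replicate 10 of the activated cells and -0.93 on the first title date.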

How the results depend on the processing

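Counts of members past 4-fold depended most on the filter. Without a filter and with a mean of at least 10 CPM alike, they were 4 and 5 at 30 min over pre-stimulation in the IL-13 and IL-5 index (2 and 2 as reported), 6 and 6 for activated over pre-stimulation (2 and 2), 5 and 5 for silent over pre-stimulation (3 and 2), 3 and 2 for activated over silent (1 and 0), and 6 and 5 for 30 min over activated (3 and 2). Of all genes at a mean of at least 10 CPM, 41.8% to 47.6% were past 4-fold in the 3 comparisons with pre-stimulation, 35.0% and 27.6% for activated over silent and 37.6% and 31.1% for 30 min over activated, and of all genes with a read 25.3% to 31.6%. With pre-stimulation cells of both indexes, and with the pseudocount of 10 CPM, the IL-13 index gave 1 at 30 min and 1 in silent cells over pre-stimulation, where Tnfrsf9 was lost at 30 min, and Tnfrsf9 and Cd69 in silent cells (24.3% and 21.6% of all genes with both indexes, 23.5% and 23.2% with the pseudocount). On the first title date alone it gave 4 for activated over pre-stimulation (34.3% of genes) and 2 for activated over silent (23.2%). On the second, activated over silent gave 2 in each index (30.4% and 22.8%). Leaving out each cell in turn gave, in the IL-13 and IL-5 index, 1 to 2 and 2 to 2 at 30 min over pre-stimulation, 2 to 3 and 2 to 3 for activated over pre-stimulation, 2 to 3 and 2 to 3 for silent over pre-stimulation, 1 to 2 and 0 to 1 for activated over silent, and 3 to 3 and 1 to 2 for 30 min over activated, while 29.3% to 43.4% of all genes were past 4-fold over pre-stimulation and 10.8% to 23.9% in the others. Fewer or more genes pass by construction under other filters, and the cause of the other moves was not tested.

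Of 2217 recomputed log2 ratios of 87 results, 1720 stayed within their 95% interval, 495 left it and 2 called ratios turned direction. Those 2 were Tnfrsf9 at 30 min over pre-stimulation in the IL-13 index, -0.11 with pre-stimulation cells of both indexes, and Cd69 in silent over pre-stimulation cells of that index, which, with the floor of 3 reads, ran from -3.35 (without replicate 1 of the silent cells) to 3.87 on leaving out 1 cell. Without the shallow cells 0 of 87 moved, and with single title dates 57 of 87 and 25 of 36 did. Scaling moved the median of all genes by up to 0.47 (TMM) and by -0.13 to 0.18 (DESeq2) on the log2 scale, and under either no called member ratio turned direction, while uncalled ratios near 0 did, as Klrg1 (0.01 and 0.17) and Icos in the IL-5 index (0.21) at 30 min over pre-stimulation with TMM factors. No paired analysis was possible because the replicate numbers and the primer numbers in the titles tie no cell of 1 group to a cell of another. Groups other than pre-stimulation share both title dates of their index, and the ratios within each date stand in place of a block.

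Depth limits the genes read in few cells. A count of 0 allows 0.80 to 3.11 CPM in a group, and the 5 members under the filter have levels that 1 cell often sets. Pre-stimulation groups hold 5 cells of the first title date, so every ratio to them rests on few cells.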

Other observations

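Il2ra, which encodes the high-affinity chain of the IL-2 receptor and belongs to the partner list, was singled out after its values were seen. Its level in the IL-13 index was 406 CPM before stimulation, 1010 CPM at 30 min, 1226 CPM in activated and 339 CPM in silent cells, and in the IL-5 index 213, 2044, 2566 and 801 CPM. Activated cells had 3.62-fold the silent level in the IL-13 index, a log2 ratio of 1.86 (95% interval 1.75 to 1.96), and 3.20-fold in the IL-5 index, 1.68 (1.62 to 1.74). Neither passed 4-fold with all cells. On leaving out 1 cell they ran from 1.57 to 2.70 and from 1.51 to 1.91, and the IL-13 ratio was past 4-fold, at 2.70, without replicate 7 of the silent cells. Cells were cultured and stimulated with IL-2.

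After thinning, the median cell had reads of 4 of the 10 members before stimulation in each index. In the IL-13 and IL-5 index it had 5 and 5 at 30 min, 5 and 4.5 at 60 min, and 4 and 5.5 at 90 min. In activated cells it had 3 and 4, and in silent cells 3 and 3.5. The highest number, 8 of 10, was in a 30 min cell of the IL-5 index.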
